A study of Mus musculus with 4 samples.

Results

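The costimulatory receptors Tnfrsf4 (OX40), Tnfrsf9 (4-1BB), Tnfrsf18 (GITR), Cd27 and Cd40 and their ligands Tnfsf4, Tnfsf9, Tnfsf18, Cd70 and Cd40lg were followed across the leukocytes of MC38 tumors. These 10 genes were chosen by name out of 19059 genes counted, and all 10 were found under their symbols in the count matrices. MC38 is a transplantable colon carcinoma line of C57BL/6 mice. It was grown in C57BL/6 hosts, in the article mice transgenic for human CTLA-4, and CD45+ cells (leukocytes) of the tumors were sorted, fixed and profiled by probe-based single-cell RNA-seq. Per the labels, treatment began at a tumor size of 100 mm3, 3 treatments were given, and the tumors of 11 mice per group were pooled on day 8 into a single library. The 4 libraries were an isotype control at 10 mg/kg, a pair of single-antibody libraries, and the combination of anti-human CTLA-4 at 10 mg/kg with an antibody to mouse FcγRII (the low-affinity IgG receptor family that includes the inhibitory FcγRIIB) at 20 mg/kg. The labels contradict themselves on the single antibodies. The library here called single antibody A is titled as anti-human CTLA-4 while its treatment field names anti-mouse FcγRII, and single antibody B is labelled the other way round. Which antibody each received was not settled, so both are shown by letter only. The article describes fewer tumors per group, an earlier harvest and lower doses than these labels. Mouse age was not given for these samples in the labels. With 1 library per group there was no replicate error and no test was possible. Every interval below is an exact 95% interval for counting error only, a count of 0 is instead given the level that 3 counts would make, and treatment cannot be told apart from library or from the mice pooled into it.

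TNF-family costimulatory receptors are switched on or raised when lymphocytes see antigen, and their ligands sit mainly on activated antigen-presenting cells. Ligand binding clusters the receptor, which recruits TRAF adaptors and activates NF-κB, supporting survival, division and cytokine production. OX40 and GITR are known as receptors of regulatory T cells (Tregs) and of recently activated T cells. 4-1BB is known from activated CD8 T cells, NK cells, tumor Tregs and some myeloid cells. CD27 is present on many resting T cells and on NK cells. CD40 works in the opposite direction, as the receptor on dendritic cells, macrophages and B cells that receives the CD40 ligand of helper T cells.

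Several of these genes are neighbours in the genome (GRCm38, GENCODE annotation). Tnfrsf4 (chr4:156013843-156016612) and Tnfrsf18 (chr4:156026164-156028895) lie 9551 bases apart, and Tnfrsf9 (chr4:150914562-150946102) is on the same chromosome. Tnfsf4 (chr1:161395409-161418410) and Tnfsf18 (chr1:161494655-161505290) are 76244 bases apart. Tnfsf9 (chr17:57105325-57107757) and Cd70 (chr17:57145997-57149777) are 38239 bases apart. Cd27 is at chr6:125232622-125237010, Cd40 at chr2:165055627-165072948 and Cd40lg at chrX:57212143-57224042. All 10 are protein-coding genes.

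Tnfrsf9 had the largest difference of the 10 genes between the combination and the isotype control in monocytes, macrophages and dendritic cells, so its start-site sequences are shown. RefSeq promoter windows (GRCm38.p6, 250 bases before to 50 after a start site, 300 bases in all) were at hand for 5 of the 10 genes, as 6 windows. Tnfrsf9 had both an upstream and a downstream start site, at positions 150920155 and 150927999 of chromosome 4, and of 9 GENCODE transcripts 1 and 2 begin there. Capitals mark a match to the NF-κB consensus on either strand.

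Tnfrsf9 upstream start, chr4:150919905-150920204 (plus strand): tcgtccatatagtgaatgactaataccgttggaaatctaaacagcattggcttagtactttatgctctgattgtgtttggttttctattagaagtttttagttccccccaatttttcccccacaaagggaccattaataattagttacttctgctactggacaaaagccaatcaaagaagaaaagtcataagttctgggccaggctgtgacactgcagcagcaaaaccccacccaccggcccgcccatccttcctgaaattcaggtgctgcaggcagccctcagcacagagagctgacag

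Tnfrsf9 downstream start, chr4:150927749-150928048 (plus strand): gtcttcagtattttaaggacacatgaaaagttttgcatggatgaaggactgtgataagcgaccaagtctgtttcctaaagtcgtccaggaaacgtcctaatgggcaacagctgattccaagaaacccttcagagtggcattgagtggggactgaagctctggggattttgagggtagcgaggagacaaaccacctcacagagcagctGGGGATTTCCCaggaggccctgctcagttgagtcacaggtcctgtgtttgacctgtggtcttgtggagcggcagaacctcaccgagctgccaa

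The downstream window held overlapping matches, GGGGATTTCC and GGGATTTCCC, beginning 43 and 42 bases before the start site, and it was the 1 window of 6 with a match. A match was held by 8.46% of all 32851 windows of this length, so the letters describe this window and say nothing about binding. The probe-based counts do not tell which start site was used.

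The libraries held 129151823 to 196362818 UMIs (unique molecular identifiers, each an RNA-bound probe counted once) and 6097 to 8173 cells, with medians of 14836 to 19115 UMIs per cell. After filters on genes, mitochondrial share and likely doublets 26785 of 28290 cells remained. Ptprc, which encodes the CD45 used for the sort, had a UMI in 96.0% to 97.6% of the kept cells of each library. The libraries were loaded together, and 9385 of 28290 cells (33.2%) shared a droplet barcode with a cell of another library, while no full barcode was shared. Cells were grouped by clustering with the receptors and ligands left out of the clustering genes. T-cell clusters held 506, 695, 267 and 526 cells in the isotype control, single antibody A, single antibody B and combination libraries, the order used throughout. Within them, cells with Cd8a or Cd8b1 but no Cd4 or Foxp3 UMI are called CD8 T cells, cells with Cd4 alone conventional CD4 T cells, and cells with Cd4 and Foxp3 Tregs. These numbered 133, 340, 101 and 271 CD8 T cells, 127, 190, 40 and 103 conventional CD4 T cells and 109, 50, 53 and 10 Tregs. NK cells and type 1 innate lymphoid cells (NK/ILC1) numbered 334, 412, 224 and 423, and the 16 clusters of monocytes, macrophages and dendritic cells (DC) together 5727, 4426, 4688 and 4946. A cluster of mixed T and macrophage content, with 825, 257, 375 and 675 cells, was kept apart.

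Levels are UMIs per 1000000 UMIs of the class (CPM) and are compared within a gene only, since probes differ in yield and levels of different genes cannot be ranked. The lymphocyte classes also carried macrophage RNA. Genes of a list of 14 macrophage markers summed to 17538, 9722, 19270 and 17685 CPM in CD8 T cells, to 11526, 1401, 18278 and 8048 in conventional CD4 T cells and to 18290, 3572, 14740 and 12646 in Tregs. Single antibody A was lowest in each class. At least 13 of the 14 markers were detected in every T-cell class and library. Lymphocyte levels are therefore also given for cells with under 1% of their UMIs on that list.

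**Figure D1:**
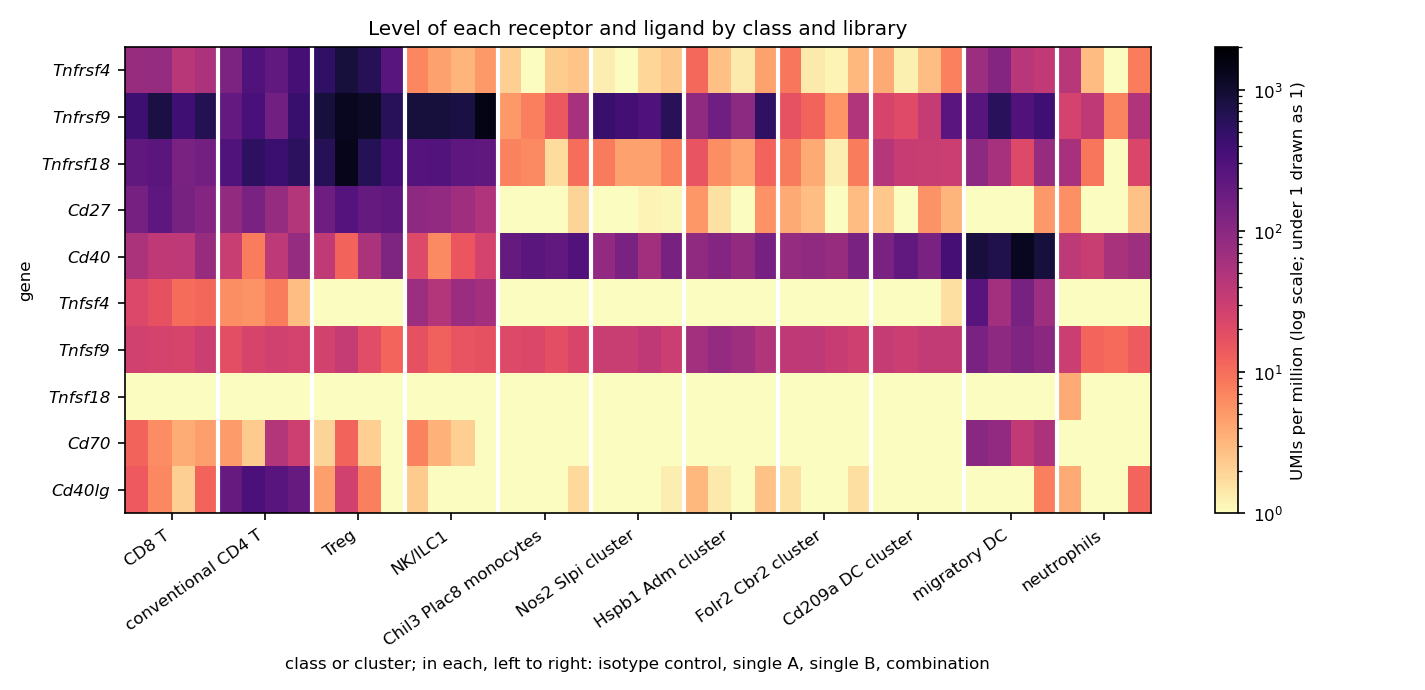
Heat map of the level of each gene (rows, CPM, log colour scale, values under 1 drawn as 1) in 11 classes or clusters (columns in groups of 4 libraries: isotype control, single antibody A, single antibody B, combination). In the first 3 libraries Tnfrsf4 and Tnfrsf18 are darkest in Tregs, and in all 4 Cd40lg is darkest in conventional CD4 T cells and Cd40 in migratory DC. Tnfrsf9 spans Tregs, CD8 T cells, NK/ILC1 and myeloid clusters.

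Tnfrsf9, the inducible receptor 4-1BB, was higher in the monocytes, macrophages and DC of the combination library than in those of the other 3 libraries. Its level there was 49.3 in the isotype control, 56.0 in single antibody A, 35.4 in single antibody B and 178 CPM in the combination, resting on 5221, 5011, 3534 and 21716 UMIs. The combination stood 3.62-fold above the isotype control (3.51 to 3.73), 3.18-fold above single antibody A (3.09 to 3.28) and 5.03-fold above single antibody B (4.86 to 5.22). The 10% of cells with the most Tnfrsf9 UMIs held 97.4%, 98.1%, 100% and 80.8% of them. The intervals treat each UMI as independent and do not cover this spread between cells. The 3 other libraries lay within 35.4 to 56.0. Over all 12034 genes with at least 50 UMIs in the isotype control and combination libraries of this class, 2.87% were higher by 2-fold or more in the combination and 3.02% lower by as much, and the median gene differed by -0.11 on the log2 scale. With libraries scaled by the median of gene ratios instead, the Tnfrsf9 ratio was 3.92. Of the 9 receptors and ligands measured at that depth here, 1 (Tnfrsf9) was 2-fold or more higher and 1 (Tnfsf4) 2-fold or more lower. The Tnfsf4 value rested on a few migratory DC, which held 98 of its 113 UMIs in the isotype control and 27 of 62 in the combination. Without that cluster its ratio turned to 2.03 (1.08 to 4.00), on 15 and 35 UMIs.

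More cells of the combination library had Tnfrsf9 UMIs. Cells with at least 1 Tnfrsf9 UMI made up 12.4%, 12.2%, 9.51% and 31.5% of this class, and cells with at least 5 UMIs 4.96%, 4.95%, 3.52% and 17.2%. With each cell thinned to 6922 UMIs the shares were 8.50%, 8.54%, 6.39% and 23.4%, and the combination remained highest at equal depth. For a background, neutrophils and these cells were thinned to 2358 UMIs. Neutrophils (median depths of 2966 to 3489 UMIs, against 14475 to 19979.5 in the monocyte, macrophage and DC class) then showed 1.57%, 3.08%, 3.39% and 2.55% with a Tnfrsf9 UMI, against 5.04%, 5.38%, 4.13% and 16.2%.

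Tnfrsf9 was highest in the combination in 15 of 16 clusters, and its ratio to the isotype control was 2-fold or more in 11 of the 15 clusters with at least 50 UMIs. A cluster with Nos2, a gene of inflammatory macrophages, and Slpi among its leading genes had 441, 374, 300 and 594 CPM. This was the highest level of the 16 clusters in each library but single antibody A, and the ratio of this cluster was the lowest, at 1.35. Monocyte clusters began near zero and had the largest ratios. Monocytes marked by Chil3 and Plac8 went from 5.0 to 59.5 CPM (11.8-fold) and monocytes marked by Ace, the patrolling type, from 4.8 to 79.7 (16.5-fold). In a cluster led by Hspb1 and Adm the level went from 89.3 to 540 (6.05-fold), in the Cxcl9 and MHC class II cluster from 15.6 to 82.0 (5.27-fold) and in the cluster led by Folr2 from 16.4 to 48.2 (2.94-fold). Cd209a DC went from 24.2 to 246 (10.1-fold), on 50 and 300 UMIs. The exception was the migratory DC, with 253, 589, 290 and 398 CPM from 13 to 37 cells, where single antibody A was highest and stood above the Nos2 Slpi cluster. The combination library also held more cells of the Nos2 Slpi cluster, 554 against 207. With the clusters weighted as in the isotype control the ratio was 3.28.

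**Figure D2:**
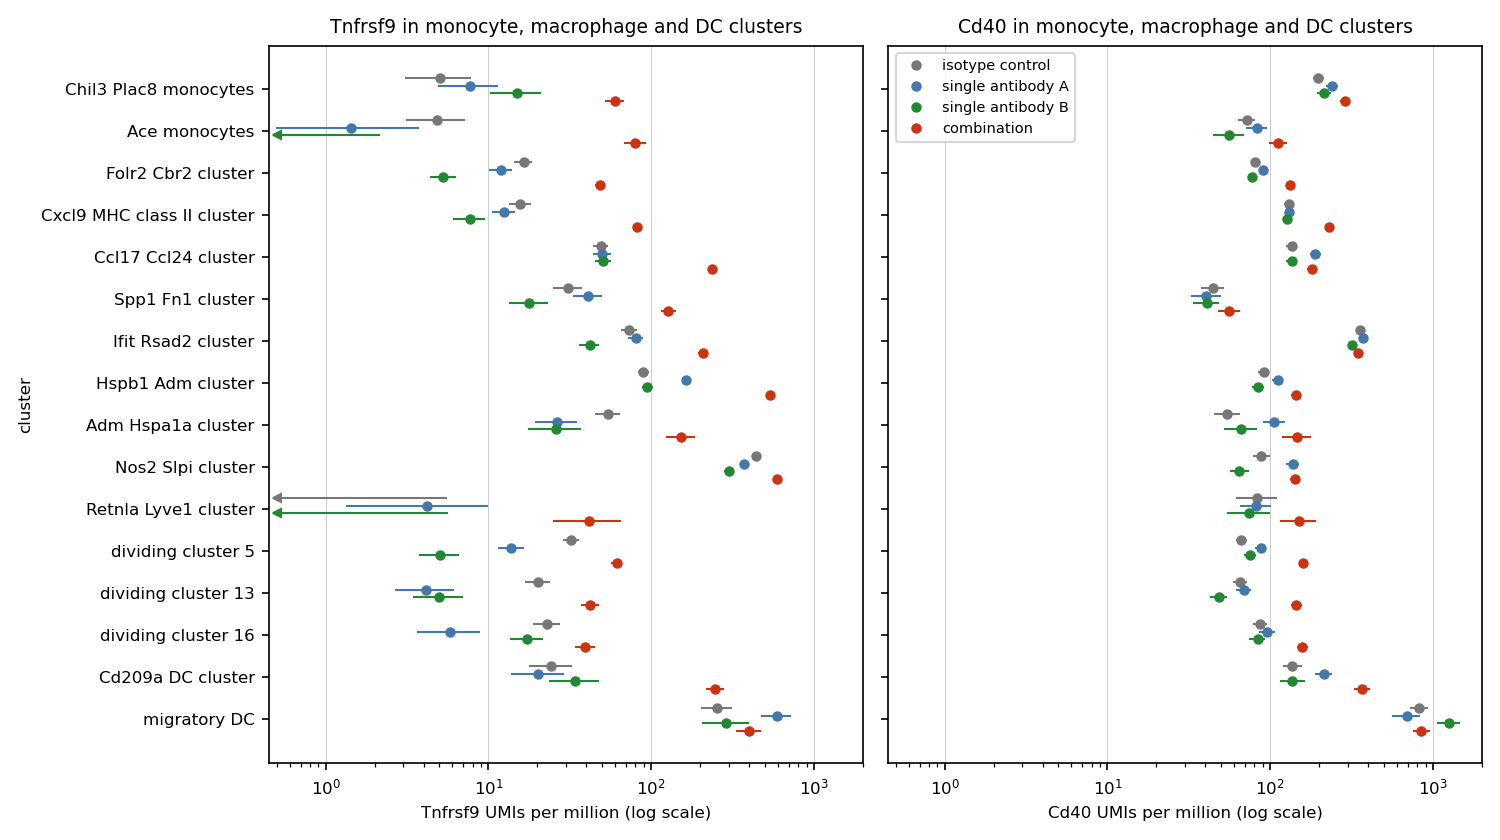
Level of Tnfrsf9 (left) and Cd40 (right) in 16 monocyte, macrophage and DC clusters (vertical axis) in CPM (log scale), with points for the 4 libraries and lines for exact 95% counting intervals, a left-pointing mark standing for 0 UMIs. The combination is the rightmost point in 15 of 16 clusters for Tnfrsf9 and in 13 of 16 for Cd40.

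Marker RNA of lymphocytes, which carry Tnfrsf9 at higher levels, was also measured. A list of 11 T-cell markers summed to 169, 79.3, 39.5 and 189 CPM in the monocyte, macrophage and DC class and a list of 12 NK and ILC1 markers to 168, 142, 93.0 and 211. The NK and ILC1 list, which includes Itga1 and Cd200r1, was also high where T-cell markers were low. Cd209a DC had 397, 522, 432 and 364 CPM of it, against 20.8, 17.7, 56.0 and 86.0 of the T-cell list. In the 1958, 1321, 1680 and 891 cells of this class without a single UMI of either list, Tnfrsf9 was at 28.7, 30.2, 20.6 and 126 CPM, a ratio of 4.40 between combination and isotype control. Such a filter drops deeper cells more readily and does not separate lymphocyte RNA from the cells' own RNA of these genes. Of all Tnfrsf9 UMIs in a library, 28.3%, 37.4%, 35.1% and 52.5% lay in monocytes, macrophages and DC.

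NK/ILC1 cells, which use 4-1BB as an activation receptor, held Tnfrsf9 at 870, 862, 790 and 1473 CPM. The first 3 libraries lay close together and the combination was 1.69-fold above the isotype control (1.61 to 1.78). Under 1% macrophage-list UMIs the levels were 1019, 876, 1013 and 1536, a ratio of 1.51. The level was highest in an NK cluster led by Gzmc, a granzyme of strongly activated cytotoxic cells, at 1268, 1232, 1005 and 1968 (1.55-fold). In this cluster 427 of 462 cells over all libraries had a Tnfrsf9 UMI. The other NK cluster, led by Klra8, a Ly49 receptor of NK cells, stood at 405 in the isotype control and 553 in the combination. At a depth of 2358 UMIs the share of NK/ILC1 cells with a Tnfrsf9 UMI was 52.8%, 52.1%, 57.6% and 63.2%.

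In CD8 T cells Tnfrsf9 was at 420, 781, 398 and 659 CPM, higher in single antibody A and the combination than in the other libraries. The combination was 1.57-fold above the isotype control (1.46 to 1.69). With coarser clusters, whose T class held fewer cells, it was 2.59-fold above. Single antibody A was above the combination, at a ratio of combination to single antibody A of 0.84 (0.80 to 0.89). In cells under 1% macrophage-list UMIs the levels were 656, 962, 778 and 1134, and there the combination was highest. Cells with both Pdcd1 and Havcr2, checkpoint receptors of exhausted T cells, had 518, 899, 417 and 699, and the remaining CD8 T cells 160, 444, 293 and 413. The higher level of single antibody A and the combination was seen in both. The split rests on detected UMIs, and cells with both genes were deeper. Their median depths were 13403.5, 10941, 16887 and 14201.5 UMIs, against 4392, 4808, 4924 and 4841 in the rest. They also carried more macrophage-list RNA, 19641, 11586, 22155 and 19526 CPM against 11997, 4412, 3442 and 6357. Levels of these 2 sets are therefore not compared with each other.

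Conventional CD4 T cells showed the same receptor at 206, 333, 158 and 452 CPM, 2.19-fold higher in the combination than in the isotype control (1.82 to 2.66). These are levels of all cells of the class, in which the macrophage list was at 11526, 1401, 18278 and 8048 CPM. Levels under 1% macrophage-list UMIs are drawn in the plot of receptor levels by lymphocyte class and are not listed here. No order of the 4 libraries is therefore read from the levels of all cells. The thinned share of cells with a UMI was 16.5%, 19.1%, 19.1% and 35.7%. Tregs had 870, 1248, 1125 and 593 CPM, a ratio of 0.68 (0.55 to 0.84). The combination value rests on 101 UMIs in 10 cells, and only 7 of those cells were under 1% macrophage-list UMIs, where the levels were 1668, 1405, 1829 and 1272.

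**Figure D3:**
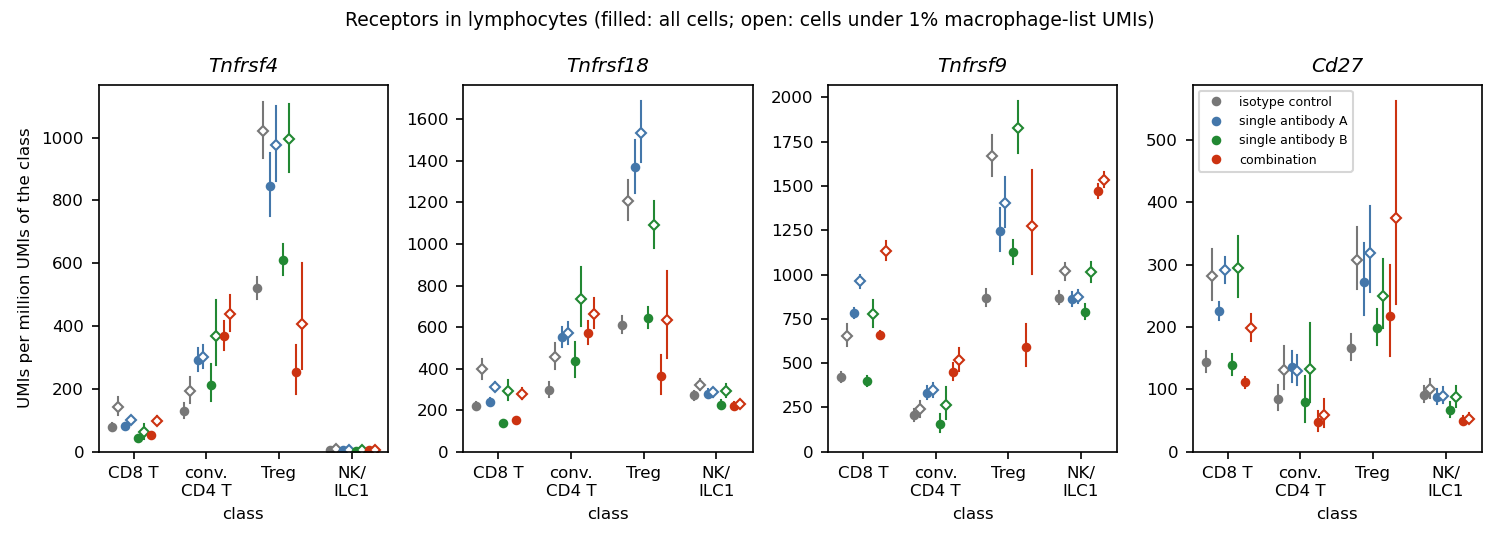
Levels of Tnfrsf4, Tnfrsf18, Tnfrsf9 and Cd27 (4 panels, CPM on linear axes from 0) in CD8 T cells, conventional CD4 T cells, Tregs and NK/ILC1 in the 4 libraries, with filled circles for all cells, open diamonds for cells under 1% macrophage-list UMIs and lines for exact 95% counting intervals. Tregs hold the highest Tnfrsf4 and Tnfrsf18 points, and in conventional CD4 T cells Tnfrsf4 is higher in the other 3 libraries than in the isotype control.

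Tnfrsf4, the receptor OX40, was highest in Tregs in the first 3 libraries and in conventional CD4 T cells in the combination. Tregs had 520, 846, 610.5 and 253 CPM, and conventional CD4 T cells 129, 292, 213 and 368. The Treg level of the combination was 0.49 times that of the isotype control (0.35 to 0.66), on 43 UMIs in 10 cells. In conventional CD4 T cells the isotype control was the lowest of the 4 libraries, and the combination stood 2.85-fold above it (2.27 to 3.61). Among cells under 1% macrophage-list UMIs the conventional CD4 T cell levels were 192, 301, 368 and 439, with a ratio of 2.28, and the Treg levels 1022, 977, 995 and 408. The share of conventional CD4 T cells with a Tnfrsf4 UMI at 2358 UMIs was 24%, 31.3%, 32.3% and 48.3%, against 0.58% to 1.13% in NK/ILC1 cells, whose median depths of 4188 to 5539 UMIs were close to the 3764 to 4702 of the conventional CD4 T cells.

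CD8 T cells had little Tnfrsf4, 78.2, 80.8, 42.5 and 53.0 CPM. The ratio of combination to isotype control was 0.68 (0.56 to 0.83), but the thinned shares were 13.7%, 13.9%, 10.5% and 13.5%, so no order is read from the CD8 T cell levels. Over all T cells Tnfrsf4 was at 216, 152, 219 and 85.0 CPM, 0.39-fold in the combination (0.36 to 0.43). Tregs made up 21.5%, 7.19%, 19.9% and 1.90% of T cells and held 49.5%, 28.2%, 62.3% and 5.56% of the T-cell Tnfrsf4 UMIs. Without Tregs the T-cell levels were 137, 115, 106 and 81.8. Monocytes, macrophages and DC had 8.87, 2.44, 2.14 and 4.49. Those without T or NK marker UMIs had 0.681 in the isotype control and 0.928 in the combination. These rest on 17 and 12 UMIs with overlapping intervals, so no direction is read from them. Migratory DC were the exception in this class, with 71.2, 110, 42.4 and 35.5.

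Tnfrsf18, the receptor GITR, followed a like distribution and reached further into NK cells. Tregs had 612, 1369, 644 and 364 CPM, and single antibody A was the highest. Conventional CD4 T cells had 297, 550, 439 and 571, with the isotype control lowest and the combination 1.92-fold above it (1.64 to 2.26). Among cells under 1% macrophage-list UMIs the conventional CD4 T cells had 458, 569, 736 and 664, a ratio of 1.45 with single antibody B highest, and the Tregs 1208, 1536, 1090 and 636. In CD8 T cells it was at 219, 241, 137 and 151, but thinned shares of cells with a UMI were 38.6% in both the isotype control and the combination. With coarser clusters, whose T class held fewer cells, the ratio of levels turned from 0.69 to 1.35. NK/ILC1 had 271, 280, 227 and 222, a ratio of 0.82 (0.73 to 0.91). It turned to 1.13 with finer clusters, whose NK class included a cluster with a median macrophage-list share of 3.17%. Among the Tregs of all libraries 193 of 222 had UMIs of both Tnfrsf4 and Tnfrsf18, while 201 had Tnfrsf4 and 213 had Tnfrsf18.

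Cd27, a receptor of resting and memory lymphocytes that is lost on late effector cells, was lowest in the combination in CD8 T cells, conventional CD4 T cells and NK/ILC1. CD8 T cells had 145, 226, 139 and 111 CPM, with the combination at 0.77 times the isotype control (0.67 to 0.89) and single antibody A highest. Under 1% macrophage-list UMIs they had 282, 291, 294 and 199, so the combination was still lowest and the other 3 libraries lay close together. Conventional CD4 T cells had 85.3, 135, 79.0 and 47.2, a ratio of 0.55 (0.36 to 0.85) on 34 UMIs in the combination, and under 1% macrophage-list UMIs 132, 129, 132 and 59.2. NK/ILC1 had 91.2, 87.4, 66.8 and 49.9, also a ratio of 0.55 (0.44 to 0.67). The Gzmc cluster made up 97 of 334, 108 of 412, 79 of 224 and 178 of 423 of these cells. The part of this make-up in the Cd27 ratio was not tested. At 2358 UMIs per cell the shares of NK/ILC1 cells with a Cd27 UMI were 21.6%, 19.2%, 18.6% and 13.3%. Tregs went the other way, with 167, 272, 199 and 217 and a ratio of 1.30 whose interval (0.90 to 1.85) includes no difference.

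Cd40, which receives help from CD40 ligand, belonged to the antigen-presenting cells. Monocytes, macrophages and DC had 112, 131, 103 and 179 CPM, and the combination was 1.60-fold above the isotype control (1.57 to 1.64). Cells with a Cd40 UMI made up 54.2%, 59.7%, 59.3% and 71.4% of the class. Thinned to 2358 UMIs these shares were 19.0%, 21.5%, 18.1% and 28.0%, against 0.60% to 2.54% in NK/ILC1 cells. The ratio was smaller than that of Tnfrsf9. The combination was highest in 13 of 16 clusters, with 2-fold or more in 4 of 16 and ratios from 0.97 to 2.68.

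Migratory DC, the mature DC that carry antigen to lymph nodes, had the most Cd40, at 823, 687, 1251 and 847 CPM, and there the combination and the isotype control lay within 1.03-fold. The cluster led by the interferon-induced Ifit genes and Rsad2 had 357, 372, 319 and 347, also without a higher value in the combination. Cd209a DC had 137, 213, 137 and 366, a ratio of 2.68, and Chil3 Plac8 monocytes 198, 241, 215 and 287. In the class as a whole 2297 of 3252 cells with a Tnfrsf9 UMI also had a Cd40 UMI, a count that rises with depth. It pools all libraries, and Cd40 UMIs were common in this class as a whole, so no link between the pair is read from it. In cells without T or NK marker UMIs the Cd40 ratio was 1.63.

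Lymphocytes had low Cd40, and in CD8 T cells most of its UMIs lay in cells with 1% or more of their UMIs on the macrophage list. CD8 T cells had 53.5, 37.5, 38.7 and 77.3 CPM, but under 1% macrophage-list UMIs 19.4, 12.8, 17.9 and 19.5. Conventional CD4 T cells had 31.7, 7.83, 39.5 and 79.2, and under 1% macrophage-list UMIs 15.1, 5.88, 6.95 and 59.2, the last from 31 UMIs in 8 cells. The part of macrophage RNA in these values was not tested further.

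Tnfsf9, the ligand of 4-1BB, was spread over monocytes, macrophages and DC at 34.6, 37.6, 35.9 and 30.2 CPM. Its order of libraries differed from that of its receptor. The combination was the lowest of the 4 libraries, at 0.87 times the isotype control (0.83 to 0.91). The median gene of this class was also lower in the combination, with a log2 ratio of -0.11. For Tnfsf9 the combination was lowest in 9 of 16 clusters and 2-fold different in none of the 15 with at least 50 UMIs. Migratory DC had 132, 92.4, 120 and 98.9. The clusters led by Adm, a hypoxia-induced gene, together with Hspb1 or Hspa1a had 63.6, 81.3, 67.9 and 48.2 and 64.8, 68.5, 56.4 and 37.6. Levels in CD8 T cells were 27.2, 24.7, 24.2 and 29.8, with overlapping intervals.

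Tnfsf4, the ligand of OX40, had its highest levels in migratory DC and in NK cells. Migratory DC had 258, 63.5, 141 and 68.5 CPM, on 98, 11, 20 and 27 UMIs in 13 of 37, 2 of 16, 6 of 13 and 11 of 35 cells. The ratio of combination to isotype control was 0.27 there, but 31 of the 98 UMIs came from 1 cell, and the shares of cells with a UMI were 35.1%, 12.5%, 46.2% and 31.4%, with single antibody B highest and the isotype control close to the combination. In the Gzmc NK cluster it was at 126, 89.6, 109 and 91.1, and in all NK/ILC1 at 71.9, 47.2, 72.6 and 60.9, a ratio of 0.85 (0.69 to 1.05). Of the 462 cells of that cluster 166 had a Tnfsf4 UMI, and 163 of these also had Tnfrsf9. Levels in CD8 T cells were 21.8, 16.9, 10.2 and 11.3. No Tnfsf4 UMI was found in the Tregs of any library, which allows up to 1.97, 9.06, 3.24 and 17.6 CPM (3 counts of each total).

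Cd70, the ligand of CD27, was rare, with 177, 99, 47 and 141 UMIs in all kept cells of the 4 libraries. Migratory DC had 100, 86.6, 35.3 and 53.3 CPM on 38, 15, 5 and 21 UMIs. Of the 38 UMIs of the isotype control 23 came from 1 cell. The shares of migratory DC with a UMI were 29.7%, 25%, 15.4% and 25.7%, so no order is read from these levels. In conventional CD4 T cells there were 4, 2, 12 and 21 UMIs, and the 12 of single antibody B came from 1 cell, so no difference is drawn from them. The CD8 T cell levels were 11.9, 6.12, 3.76 and 4.59 CPM on 24, 25, 7 and 24 UMIs. Under 1% macrophage-list UMIs they were 13.4, 7.91, 1.99 and 11.6 on 9, 21, 1 and 19 UMIs. There the intervals of the isotype control and the combination overlap, so no direction is read from the levels of all cells.

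Cd40lg, the ligand through which helper T cells act on CD40, marked conventional CD4 T cells, with 192, 324, 257 and 197 CPM. The combination and the isotype control were within 1.03-fold (0.81 to 1.29), and single antibody A was 1.68-fold above the isotype control (1.38 to 2.06). Under 1% macrophage-list UMIs the levels were 270, 333, 361 and 258, where single antibody B was highest and single antibody A stood at 1.23 times the isotype control, with an interval (1.00 to 1.53) that reaches no difference. At 2358 UMIs, 39.9%, 50.6%, 45% and 37.8% of conventional CD4 T cells had a UMI, against 0% to 0.11% of NK/ILC1 cells. Few UMIs lay in CD8 T cells, at 14.4, 6.61, 2.15 and 11.9 CPM on 29, 27, 4 and 62 UMIs, and 20 of the 29 in the isotype control came from 1 cell. Under 1% macrophage-list UMIs the CD8 T cell levels were 10.5, 9.03, 5.97 and 26.8, and the ratio of combination to isotype control turned from 0.83 to 2.56 on 51 UMIs, so no direction is read from it. Tregs had 7, 9, 7 and 0 UMIs. The mixed T and macrophage cluster, where the T-cell types cannot be told apart, had 10.5, 22.2, 9.35 and 21.7 CPM. Of the 168 UMIs of single antibody A 76 came from 1 cell, and the shares of cells with a UMI were 19.3%, 17.1%, 16.8% and 26.8%, in which single antibody A was not raised.

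Tnfsf18, the ligand of GITR, was nearly absent from these cells, with 32, 14, 23 and 33 UMIs in all kept cells. No class held enough for a comparison.

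**Figure D4:**
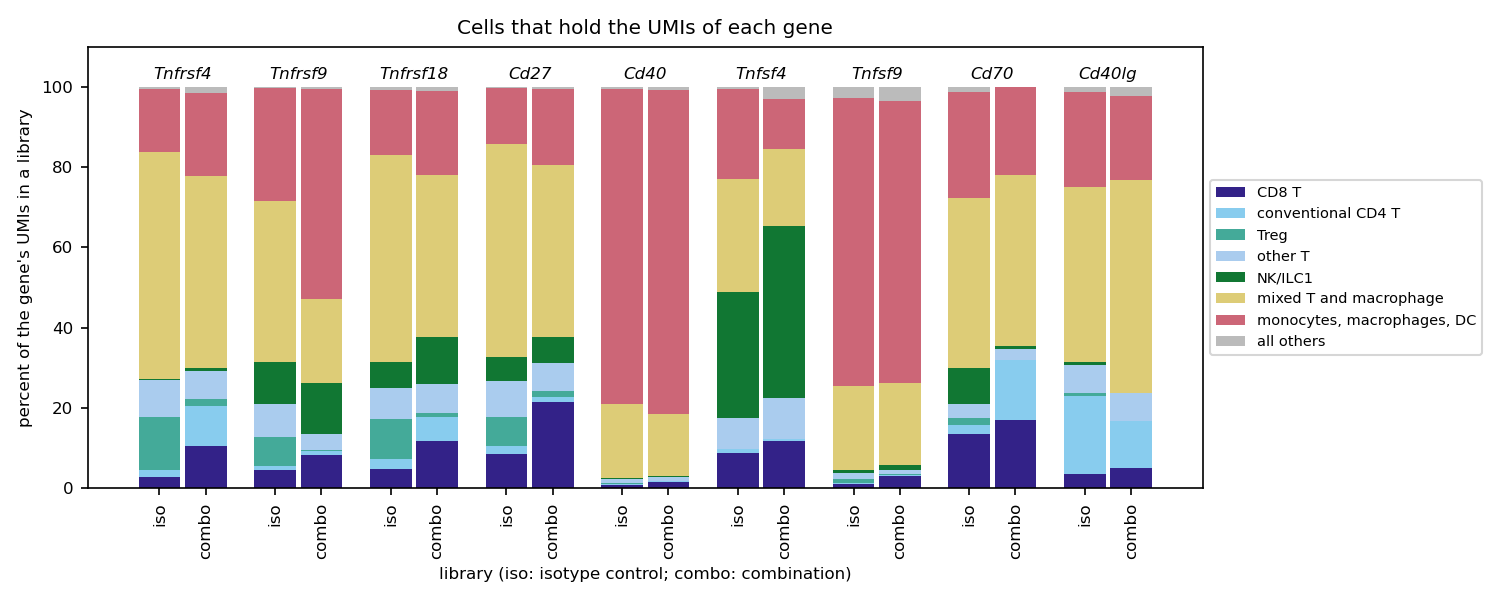
Stacked bars of the percent of each gene's UMIs that lay in each class (vertical axis, 0 to 100%) in the isotype control (iso) and combination (combo) libraries, for the 9 genes other than Tnfsf18. Monocytes, macrophages and DC hold 28.3% of Tnfrsf9 UMIs in the isotype control and 52.5% in the combination. Tregs of the T-cell clusters hold 13.3% and 1.63% of Tnfrsf4 UMIs, and any Tregs in the mixed T and macrophage cluster are not in this share.

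The mixed T and macrophage cluster carried a large part of the receptor RNA. It held 56.6% of all Tnfrsf4 UMIs in the isotype control and 47.9% in the combination, and 40.1% and 21% of those of Tnfrsf9. Its cells also carried NK and ILC1 marker RNA, with the list of 12 markers at 938, 971, 847 and 820 CPM. The leading genes of this cluster began with Foxp3 and Tnfrsf4 and included Icos, Ctla4, Ccr8 and Cd8a. The class levels above leave these cells out, and so do the Treg counts and the Treg shares of UMIs. How much of the receptor RNA in this cluster came from Tregs was not tested.

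**Figure D5:**
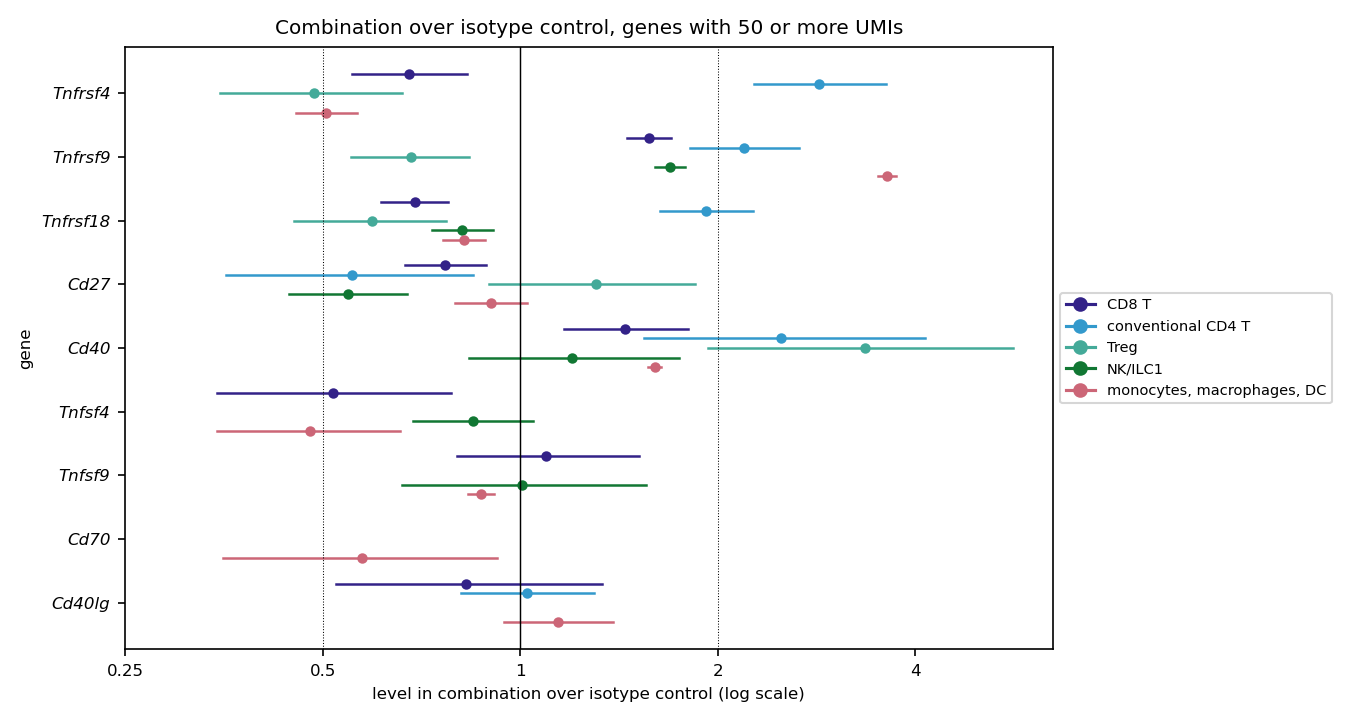
Ratio of the level in the combination to that in the isotype control (horizontal axis, log scale) for each gene (vertical axis) in 5 classes, shown where both libraries together had at least 50 UMIs, with exact 95% counting intervals and dotted lines at 0.5 and 2. Tnfrsf9 in monocytes, macrophages and DC is at 3.62 and Tnfrsf4 in conventional CD4 T cells at 2.85.

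Calls at 2-fold were counted by class. In conventional CD4 T cells 3 of 6 genes with at least 50 UMIs were 2-fold or more higher in the combination (Tnfrsf4, Tnfrsf9 and Cd40) and none lower, against 2.45% higher and 3.25% lower of all 6610 genes, with median log2 ratios of 1.04 and -0.04. Of these calls Tnfrsf4 fell below 2-fold with means over cells (1.89). Tnfrsf9 fell below it with cells named one by one (1.68) and with more doublets left out (1.99). Under 1% macrophage-list UMIs, Cd40 in the combination rested on 31 UMIs in 8 cells. The macrophage list in this class was at 11526 CPM in the isotype control and 8048 in the combination. The part of macrophage RNA in the Cd40 call was not tested. In CD8 T cells 0 of 8 passed in either direction, against 2.00% and 1.15% of 9547 genes, and in NK/ILC1 0 of 6, against 1.09% and 1.33% of 9043. With coarser clusters Tnfrsf9 in CD8 T cells was at 2.59, and with finer clusters in NK/ILC1 at 2.35, but these classes held other cells. The coarser T class had 1321 cells, beside a mixed T and macrophage cluster of 2944 cells led by Cd8a. The finer NK class included a cluster of 417 cells with a median macrophage-list share of 3.17%. In Tregs 1 of 5 was higher (Cd40) and 1 lower (Tnfrsf4), against 2.60% and 8.70% of 6778 genes, on 10 cells of the combination. The Treg Cd40 value rests on 21 UMIs in the combination, 18 of them in 1 cell, and its ratio of 3.36 turned to 0.436 without integration and to 0.606 with cells named one by one. The classes share no cells, but every ratio uses the same isotype control library, and no difference between classes was tested.

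A further list of 28 genes held other TNF-family receptors and ligands such as Tnf, Fasl and Tnfrsf14, and Btla, an inhibitory receptor of the immunoglobulin superfamily that binds Tnfrsf14. Among all measured genes, 2.87% were 2-fold or more higher and 3.02% lower in monocytes, macrophages and DC. These shares were 2.00% and 1.15% in CD8 T cells and 2.45% and 3.25% in conventional CD4 T cells. They were 1.09% and 1.33% in NK/ILC1 and 2.60% and 8.70% in Tregs. The counts of this list below rest on few genes each and were not tested against these shares. In monocytes, macrophages and DC 1 of 26 measured was 2-fold or more higher, Tnfsf15 (the ligand TL1A), from 1.39 to 5.30 CPM, and 2 were lower. The lower pair were Tnfrsf13c, a B-cell survival receptor, from 1.19 to 0.296, and Btla, from 7.11 to 3.15. In CD8 T cells 1 of 22 was higher, the cytokine gene Tnf, from 115 to 244 CPM, and 3 were lower, Tnfsf8 (the CD30 ligand), Tnfsf11 (RANKL) and Btla. In conventional CD4 T cells 1 of 17 was higher, Tnfsf8, from 46.3 to 133 CPM, while it was among the lower ones in CD8 T cells. This difference between the classes was not tested. The 3 lower ones in conventional CD4 T cells, Tnfsf13, Tnfsf12 and Tnfrsf21, rest on 15 to 19 UMIs in the combination. In NK/ILC1 1 of 21 was higher, Tnfrsf25 (the TL1A receptor), from 4.49 to 12.1 CPM, and 0 lower. In Tregs 0 of 13 were higher and 2 lower, Tnfrsf21 and Lta, on 4 and 2 UMIs in the combination.

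Of 23 genes that carry signals below these receptors (TRAF adaptors, NF-κB subunits and their targets) none passed 2-fold in any of these 5 classes. In monocytes, macrophages and DC the highest ratios were those of Traf1, an adaptor bound by 4-1BB and itself an NF-κB target, with 36.3, 36.4, 24.7 and 66.1 CPM (1.82-fold), and of Nfkbia, the NF-κB inhibitor that NF-κB induces, with 304, 348, 275 and 522 (1.71-fold). Nfkbia was chosen after its values were seen, as was Tnfaip3, another feedback inhibitor, which had 80.9, 87.6, 64.5 and 117 (1.45-fold). In these 3 of the 23 genes the combination was highest and single antibody B lowest. No likeness to Tnfrsf9 is read from so few genes, some of them picked after their values were seen. The median log2 ratio of the 23 genes in this class was 0.05, against -0.11 over all genes. The order of libraries in the rest of the list was not counted. Map3k14, the kinase of the noncanonical pathway, had the lowest ratio, at 0.76.

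Genes with the most similar pattern were taken over 48 points, each a named class in a library, among 12428 genes. These are descriptions, since the points share libraries and depth. Tnfrsf9 was most like Pfn1 (Pearson r = 0.894) and Pdcd1 (0.890), and Tnfrsf4 most like Sdcbp2 (0.905), Icos (0.856) and Atcay (0.856). Tnfrsf18 followed Sdf4 (0.884), Jak3 (0.881) and Icos (0.873). Cd27 followed the T-cell genes Zap70 (0.958), Tox (0.947) and Trbc1 (0.940), and Cd40 the antigen-presentation genes Ifi30 (0.935) and Cd83 (0.927) and the phosphatase Ptprj (0.908). For the ligands the values were 0.901 for Fam178b with Tnfsf4, 0.887 for Spr with Tnfsf9, 0.908 for Lad1 with Cd70 and 0.872 for Il17re with Cd40lg.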

How the data were processed

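The deposited files were Cell Ranger matrices of UMI counts per probe-targeted gene and cell, made by the authors from fixed-cell (Flex) libraries against mm10. The version is 7.2.0 in the file headers and 7.0.0 in the submitters' processing notes. Cells with under 500 genes or over 10% mitochondrial UMIs were left out, and so were the 5% of cells in each library with the highest Scrublet scores, because its automatic threshold marked 1 to 3 cells. The libraries were normalized with sctransform 0.4.2, integrated on 3000 features and clustered with Seurat 5.3.0 on 30 components, with 8 of the 10 genes taken out of those features. The 27 clusters were named from fixed marker lists. Counts were summed by class and library. Intervals are exact Poisson, conditional binomial or binomial intervals and cover counting error only. A gene was counted as different at 2-fold with at least 50 UMIs. The genes and lists were chosen with earlier results of these data known. The named genes were the 10 receptors and ligands, genes among the 3 most like each (1 is not reported here), and the pathway genes that passed 2-fold or had the highest or lowest ratio. The ratio code was tested on simulated data.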

Additional observations from a re-analysis of the deposited data

Results flagged for a closer look

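The direction of the ratio of combination to isotype control was not the same in all classes. Tnfrsf4 was higher in conventional CD4 T cells (2.85-fold) and lower in CD8 T cells (0.677-fold), in Tregs (0.485-fold) and in monocytes, macrophages and DC (0.507-fold). Tnfrsf9 was higher in conventional CD4 T cells (2.19-fold) and in monocytes, macrophages and DC (3.62-fold) and lower in Tregs (0.682-fold). Its ratio in conventional CD4 T cells is from all cells of the class, from whose levels no order of libraries is read. That ratio fell below 2-fold with cells named one by one. Tnfrsf18 too was higher in conventional CD4 T cells (1.92-fold) and lower in Tregs (0.595-fold). The Treg values rest on 10 cells of the combination. In CD8 T cells the shares of cells with a Tnfrsf4 UMI at equal depth were 13.7% and 13.5%, so that lower level is not read as a direction. In monocytes, macrophages and DC without T or NK marker UMIs the Tnfrsf4 ratio was 1.36. It rests on 17 and 12 UMIs with overlapping intervals, so no direction is read there either. With 1 library per group the differences between classes were not tested.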

How the results depend on the processing

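Under each alternative the ratio of combination to isotype control was recomputed, giving 412 values for 43 ratios. Of these 288 stayed within the main counting interval and 36 lay on the other side of 1. In 28 of the 36 the main interval included no difference, as for Cd40lg in CD8 T cells, which went from 0.826 to 2.56 under 1% macrophage-list UMIs. In the other 8 it did not. Among values outside the interval 36 moved by over 1.5 times without turning a called ratio. No paired analysis was possible because each group is 1 library, and for the same reason no replicate could be left out. Of these 8 values, Cd40 in Tregs turned without integration (0.436) and with cells named one by one (0.606). Coarser clusters turned Cd40 in CD8 T cells (0.366), Tnfrsf18 in CD8 T cells (1.35) and Tnfrsf9 in all T cells (0.589). Finer clusters turned Tnfrsf18 in NK/ILC1 (1.13). Also turned were Tnfrsf4 in monocytes, macrophages and DC without T or NK marker UMIs (1.36, on 17 and 12 UMIs) and Tnfsf4 in that class without migratory DC (2.03). The coarser T class held 1321 cells, beside a mixed T and macrophage cluster of 2944 cells led by Cd8a. The finer NK class included a cluster of 417 cells with a median macrophage-list share of 3.17%. The cause of the turned values was not tested. Without integration Tnfrsf4 and Tnfrsf18 in T cells were at 0.462 and 0.660, Tnfrsf4 in conventional CD4 T cells at 2.12, and Tnfrsf9 in NK/ILC1 at 1.95 and in monocytes, macrophages and DC at 3.22. With coarser clusters Tnfrsf4 in T cells was at 0.430, Tnfrsf9 in CD8 T cells at 2.59 and Tnfrsf4 in conventional CD4 T cells at 2.23. With finer clusters Tnfrsf9 in CD8 T cells was at 1.81 and in NK/ILC1 at 2.35, and Tnfrsf4 in conventional CD4 T cells at 2.24. With cells named one by one the values were 1.74 for Tnfrsf9 in CD8 T cells, 2.21 for Tnfrsf4 in conventional CD4 T cells, 1.57 for Tnfrsf9 in NK/ILC1, and 4.21 and 1.55 for Tnfrsf9 and Cd40 in monocytes, macrophages and DC. Median-of-ratios scaling gave 3.92 and 1.74 for that pair. Means over cells gave 4.32 and 1.55 for them, 1.74 for Tnfrsf9 in CD8 T cells and 1.89 for Tnfrsf4 in conventional CD4 T cells. Cells under 1% macrophage-list UMIs gave 0.555 for Tnfrsf18 in T cells and 1.73 and 1.51 for Tnfrsf9 in CD8 T cells and NK/ILC1. Chosen after seeing the data, like the setting without migratory DC, leaving out cells with T or NK marker UMIs gave 4.40 for Tnfrsf9 in monocytes, macrophages and DC, the cluster weights of the isotype control 3.28, and leaving out Tregs 0.597 and 0.792 for Tnfrsf4 and Tnfrsf18 in T cells. The share of monocytes, macrophages and DC with Tnfrsf9, 8.50% and 23.4% in the isotype control and combination after thinning, was 12.4% and 31.5% without thinning and 4.69% and 16.6% at 2 or more UMIs. Depth limits the ratios that rest on few UMIs, such as Cd40 in Tregs.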
